A study of Homo sapiens with 12 samples.

Results

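The mRNAs of 10 genes for calcium, potassium, cation and proton channels and for the store sensors STIM1 and STIM2 were followed in U-2932 cells, which derive from a diffuse large B cell lymphoma of human origin. Cells carrying a stably expressed Roquin2, either Y691F or wild type (WT), were compared at the mRNA level, and each form was grown with and without F(ab')2-IgM, an antibody fragment that crosslinks the B cell receptor. The IgM dose was 10 µg/ml and the exposure lasted 12 h. Roquin2 (gene RC3H2) binds selected mRNAs and promotes their degradation. Each of the 4 groups (Y691F with IgM, Y691F untreated, WT with IgM, WT untreated) had 3 libraries of strand-specific polyA+ RNA-seq. All groups share the parental line and a stable Roquin2. Whether 1 or several independently made lines stand behind each form is not stated in the labels or the file, so the effect of the form cannot be told apart from other differences between the stable cells.

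The genes were KCNA2, KCNA3, KCNN4, TRPM4, HVCN1, ORAI1, ORAI2, STIM1, STIM2 and ITPR1, which are 10 of the 60675 genes in the deposited table. They were chosen by name with earlier results of these libraries known. KCNA2 and TRPM4 were chosen for reads that disappear or appear with IgM, so their values are given as a description with no test. The other 8 genes were tested in a fit over all 15112 genes that passed a filter on low counts. All 10 genes passed that filter, KCNA2 through the untreated Y691F libraries and TRPM4 through the IgM libraries.

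As background, crosslinking of the B cell receptor leads to inositol trisphosphate, which opens its receptors, among them ITPR1, and lets calcium out of the endoplasmic reticulum. STIM1 and STIM2 sense the emptied store and open ORAI channels in the plasma membrane, which is known as store-operated calcium entry. Potassium channels such as KCNA3 and the calcium-activated KCNN4 keep the membrane potential negative and so favour calcium entry, while TRPM4, a calcium-activated channel for monovalent cations, depolarizes the membrane. HVCN1 is the voltage-gated proton channel, which in B cells associates with the B cell receptor and accompanies the production of reactive oxygen species.

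The promoter windows of KCNA2, KCNA3 and TRPM4 are shown because KCNA2 reads disappear and TRPM4 reads appear with IgM, and KCNA3 is a neighbour of KCNA2 with a like pattern. The sequences are from RefSeq (GRCh38.p14), run from 250 bases before to 50 bases after an annotated start, and read 5′ to 3′ on the gene's strand. Capitals mark GGAAA or its reverse complement TTTCC, the core letters bound by NFAT factors. The KCNA2 windows are chr1:110631391-110631690 (minus strand, outer start) and chr1:110606309-110606608 (minus strand, inner start), the KCNA3 window is chr1:110674891-110675190 (minus strand) and the TRPM4 window is chr19:49157542-49157841 (plus strand). By symbol, 8 of the 10 genes matched the table, with 14 windows; HVCN1 and ORAI1 did not.
KCNA2 outer start: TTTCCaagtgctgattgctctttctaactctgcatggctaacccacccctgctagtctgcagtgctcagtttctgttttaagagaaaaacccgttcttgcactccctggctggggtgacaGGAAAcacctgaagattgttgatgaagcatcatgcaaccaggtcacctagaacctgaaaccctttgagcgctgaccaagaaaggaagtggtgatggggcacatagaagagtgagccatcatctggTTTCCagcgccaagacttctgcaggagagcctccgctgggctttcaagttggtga
KCNA2 inner start: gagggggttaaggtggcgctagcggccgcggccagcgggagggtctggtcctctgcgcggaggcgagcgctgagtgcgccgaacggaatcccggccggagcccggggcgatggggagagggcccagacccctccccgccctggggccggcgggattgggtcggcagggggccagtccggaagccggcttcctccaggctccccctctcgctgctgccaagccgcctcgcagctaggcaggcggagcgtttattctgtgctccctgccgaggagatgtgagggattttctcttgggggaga
KCNA3: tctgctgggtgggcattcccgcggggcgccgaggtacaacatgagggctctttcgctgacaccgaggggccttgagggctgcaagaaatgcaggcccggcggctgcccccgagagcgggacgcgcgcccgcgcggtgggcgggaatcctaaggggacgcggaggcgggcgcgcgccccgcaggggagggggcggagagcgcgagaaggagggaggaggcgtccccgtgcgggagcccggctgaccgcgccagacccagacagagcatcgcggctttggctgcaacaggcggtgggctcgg
TRPM4: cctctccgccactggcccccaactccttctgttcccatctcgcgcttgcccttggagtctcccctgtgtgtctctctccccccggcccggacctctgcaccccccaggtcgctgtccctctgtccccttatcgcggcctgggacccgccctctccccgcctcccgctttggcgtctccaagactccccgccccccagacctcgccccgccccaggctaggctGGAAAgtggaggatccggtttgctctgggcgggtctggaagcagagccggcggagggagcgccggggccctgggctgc

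The outer KCNA2 window held 3 matches to the core letters and the TRPM4 window held 1, while the inner KCNA2 window and the KCNA3 window held none. At least 1 match occurs in 61.2% of the 35116 promoter windows in the table, searched on both strands. The outer KCNA2 window has a GC content of 50.3% and 4 CpG dinucleotides, against 71.3% and 28 in the inner window, 73.7% and 37 in the KCNA3 window, and 71.0% and 21 in the TRPM4 window. The medians over all windows are 58.7% and 14, so the outer KCNA2 window is the one of these 4 that lies below both medians. The letters TGANTCA (bound by AP-1 factors) occur in 7.71% of all windows and GCGTGGGCG (EGR factors) in 0.795%. Neither motif was in a printed window. KCNA3 has other starts in the table, and the window at chr1:110671726-110672025 held 1 match to TGANTCA and 1 to the NFAT core letters. That window lies wholly outside the span of KCNA3 in the deposited counts (110672465 to 110675033), past its 3′ end. Which start is used in these cells was not measured, and a match is a description of the letters only.

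The libraries held 16465393 to 21478790 counts, with 7.63% to 8.82% of counts on mitochondrial genes. Levels are given as CPM, the counts scaled to the TMM-adjusted library total, as mean ± SD over 3 libraries. RC3H2 averaged 206 ± 1.79 CPM in Y691F with IgM and 121 ± 1.80 CPM in WT with IgM, and 208 ± 0.880 CPM in Y691F untreated against 110.4 ± 1.08 CPM in WT untreated. RC3H2 was thus higher in Y691F, 1.70-fold with IgM and 1.89-fold untreated (edgeR, adjusted p = 6.77e-36 and 2.26e-41). The form and the total RC3H2 level therefore differ together in every comparison of Y691F with WT. RC3H2 counts do not separate the introduced from the endogenous gene. All 7 B cell markers on the list passed the filter, with a summed level of 4142 to 5415 CPM per library. Summed T and NK cell markers reached 1.91 CPM and myeloid markers 1.58 CPM at most. Fibroblast and epithelial markers summed to 20.7 to 27.1 CPM, most of it EPCAM. Neuron markers summed to at most 0.845 CPM, with 3 of 5 at 0 reads throughout. In bulk RNA, fewer cells with a transcript and less of it per cell cannot be told apart.

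**Figure D1:**
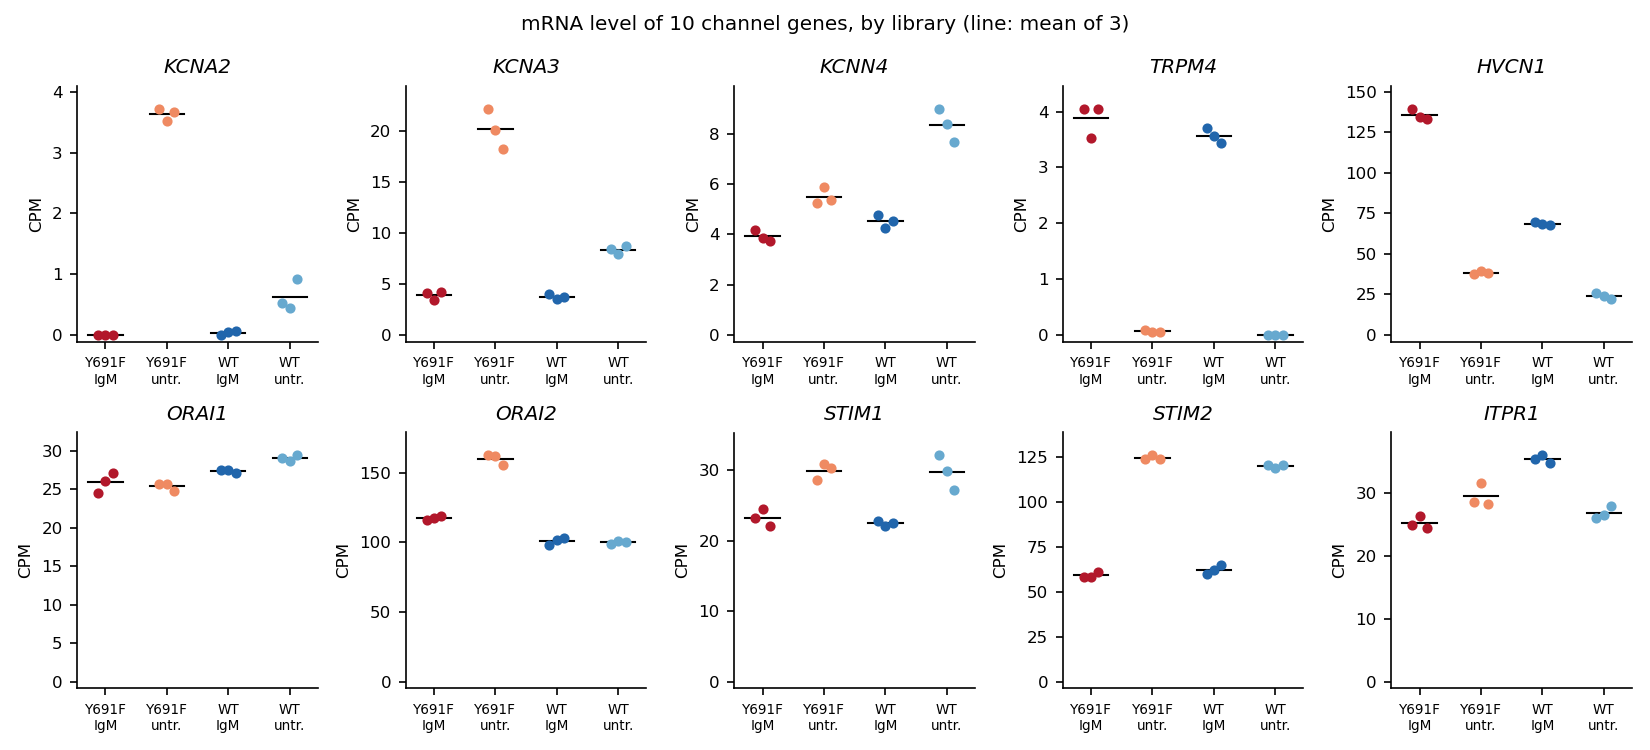
CPM of each of the 10 channel genes in the 12 libraries, with 1 point per library and a line at the mean of 3; the vertical scale differs between genes and includes 0. KCNA2 points lie near 0 in both IgM groups, TRPM4 points lie near 0 in both untreated groups, and HVCN1 is highest in Y691F with IgM at 136 CPM.

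KCNA2 encodes a voltage-gated potassium channel of the shaker family that is best known from neurons. It had 0, 0 and 0 reads in Y691F with IgM, against 81, 68 and 73 reads in Y691F untreated. It had 0, 1 and 1 reads in WT with IgM, against 10, 10 and 16 reads in WT untreated. The transcript was thus at or near 0 reads in all 6 IgM libraries, and all untreated Y691F libraries lay above all untreated WT libraries. With IgM the summed level in Y691F was at least 63.7-fold lower than in untreated Y691F cells, taking 3 counts over the group as the floor for a group with no read. In WT it was 15.6-fold lower with IgM than without, with a 95% interval of 4.01 to 134. In untreated cells, Y691F had 222 reads and WT 36 reads over the group, a ratio of 5.95 with a 95% interval of 4.17 to 8.71. These intervals and bounds cover counting error only. With IgM both forms, at 0 and 2 reads, were under the floor of 3, so no ratio between them is given.

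TRPM4 (chromosome 19, 49157741 to 49211836, plus strand, GRCh38) had the opposite pattern over the treatment. It had 73, 66 and 64 reads in Y691F with IgM, against 2, 1 and 1 reads in Y691F untreated. It had 62, 66 and 54 reads in WT with IgM, against 0, 0 and 0 reads in WT untreated. Every IgM library thus held at least 54 reads and no untreated library more than 2. The summed level was 59.0-fold higher with IgM in Y691F (95% interval 22.7 to 219) and at least 70.0-fold higher with IgM in WT. Between the forms with IgM, the ratio of Y691F to WT was 1.08 with a 95% interval of 0.883 to 1.33, and their libraries overlapped. Even with IgM the level was low: Y691F averaged 3.88 ± 0.298 CPM and WT 3.57 ± 0.134 CPM.

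KCNA3 encodes the voltage-gated potassium channel known from activated and memory lymphocytes. Its level was 4.11, 3.48 and 4.24 CPM in Y691F with IgM, against 22.2, 20.1 and 18.3 CPM in Y691F untreated. It was 4.01, 3.56 and 3.69 CPM in WT with IgM, against 8.42, 7.91 and 8.77 CPM in WT untreated. The untreated Y691F libraries stood above all others, the untreated WT libraries came next, and the IgM libraries of both forms overlapped at the lowest level. KCNA3 fell with IgM by 2.36 on the log2 scale in Y691F (SE 0.10, 5.14-fold lower, adjusted p = 9.83e-37). In WT it fell by 1.15 (SE 0.12, 2.22-fold lower, adjusted p = 5.06e-14). The log2 response in Y691F minus that in WT was -1.21 (SE 0.17, adjusted p = 1.75e-08). Untreated, Y691F was higher than WT by 1.28 on the log2 scale (SE 0.08, adjusted p = 1.10e-23), and with IgM the log2 change was 0.07 (SE 0.15, adjusted p = 0.755).

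KCNA2 and KCNA3 lie on the minus strand of chromosome 1, at 110593580 to 110631474 and 110672465 to 110675033 (GRCh38), with 40990 bases between them. The span from KCNA2 to KCNA3 holds 4 annotated genes, both included, and the levels of the others are not given here. KCNA2 and KCNA3 were both highest in untreated Y691F, next in untreated WT, and lowest in the IgM groups. Of the pair, KCNA2 was chosen for its IgM pattern. KCNA10, another member of the family on the same chromosome at 110517251 to 110518838, had 0 reads in all 12 libraries; it was picked after its values were seen.

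KCNN4, the calcium-activated potassium channel of intermediate conductance, averaged 3.92 ± 0.221 CPM in Y691F with IgM and 5.51 ± 0.346 CPM in Y691F untreated. It averaged 4.52 ± 0.262 CPM in WT with IgM and 8.36 ± 0.661 CPM in WT untreated. It was thus lower with IgM in both forms, and untreated Y691F lay below untreated WT, the reverse of KCNA3. The fall with IgM was by 0.48 on the log2 scale in Y691F (SE 0.13, adjusted p = 5.80e-04) and by 0.89 in WT (SE 0.12, adjusted p = 1.09e-10). The responses differed by 0.41 (SE 0.18), which did not pass the test at an adjusted p = 0.0842. Untreated, the log2 change of Y691F against WT was -0.61 (SE 0.11, adjusted p = 2.50e-06), and with IgM it was -0.20 (SE 0.14, adjusted p = 0.261).

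HVCN1, the proton channel, had the largest rise of the 8 tested genes. Its level was 139.6, 134 and 133 CPM in Y691F with IgM, against 37.9, 39.2 and 38.2 CPM in Y691F untreated. It was 69.9, 68.3 and 68.0 CPM in WT with IgM, against 25.6, 24.0 and 22.1 CPM in WT untreated. No groups overlapped, and Y691F lay above WT under both conditions. HVCN1 rose with IgM by 1.82 on the log2 scale in Y691F (SE 0.04, 3.53-fold, adjusted p = 2.97e-56) and by 1.52 in WT (SE 0.05, 2.87-fold, adjusted p = 7.90e-45), and the response in Y691F was larger by 0.30 (SE 0.07, adjusted p = 2.68e-04). Y691F against WT gave a log2 change of 0.98 with IgM (SE 0.04, 1.97-fold, adjusted p = 1.75e-37) and of 0.68 untreated (SE 0.05, adjusted p = 3.14e-19). The gene (chromosome 12, 110627841 to 110704950, minus strand) overlaps TCTN1 on the other strand. TCTN1 averaged 10.9 CPM in Y691F with IgM, 5.38 in Y691F untreated, 6.56 in WT with IgM and 4.28 in WT untreated, and whether reads were counted by strand is not stated in the labels or the file. The part of TCTN1 reads in the HVCN1 counts was not tested.

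**Figure D2:**
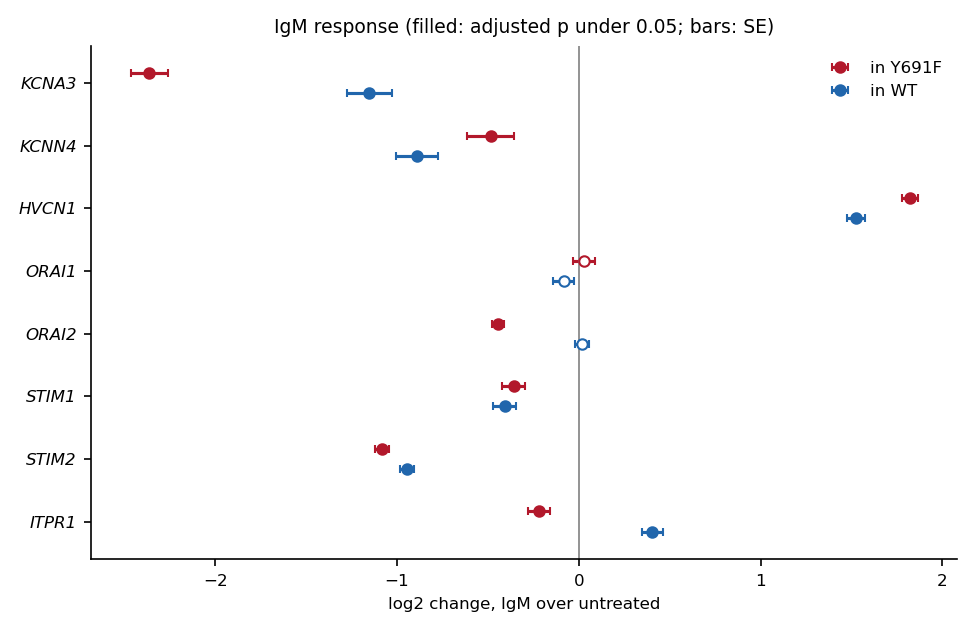
Log2 change of IgM over untreated for the 8 tested channel genes in Y691F (upper point of each pair) and WT (lower point); bars are the SE and filled points passed an adjusted p under 0.05. KCNA3 lies at -2.36 and -1.15, HVCN1 at 1.82 and 1.52, and ITPR1 lies on opposite sides of 0.

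ORAI1 and ORAI2 both form the pore of store-operated entry, ORAI1 being the main pore of the current in lymphocytes and ORAI2 a paralog that can join it. ORAI1 averaged 25.9 ± 1.28 CPM in Y691F with IgM, 25.4 ± 0.525 in Y691F untreated, 27.4 ± 0.215 in WT with IgM and 29.0 ± 0.387 in WT untreated. Its level thus spanned a narrow range over the 4 groups. The IgM response was 0.03 on the log2 scale in Y691F (SE 0.06, adjusted p = 0.687) and -0.08 in WT (SE 0.06, adjusted p = 0.194), neither past the test. When library totals replaced the TMM factors, which moved the median of all genes by -0.17 in Y691F and by -0.13 in WT, ORAI1 was called lower with IgM in both forms, at -0.14 in Y691F and -0.22 in WT. Untreated, Y691F was lower than WT by a log2 change of -0.19 (SE 0.06, adjusted p = 0.00557).

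ORAI2 was called with IgM in Y691F and not in WT. It had 116, 118 and 119 CPM in Y691F with IgM, against 162, 162 and 155 CPM in Y691F untreated. It had 98.1, 102 and 103 CPM in WT with IgM, against 98.6, 101 and 99.8 CPM in WT untreated. The untreated Y691F libraries were the highest, the IgM libraries of Y691F came next, and both WT groups overlapped below them. ORAI2 fell with IgM by 0.44 on the log2 scale in Y691F (SE 0.03, adjusted p = 4.12e-21), while the change in WT was 0.02 (SE 0.04, adjusted p = 0.673). With library totals in place of TMM factors the WT change was -0.12 and passed the test. The log2 response in Y691F minus that in WT was -0.46 (SE 0.05, adjusted p = 1.18e-12). Y691F was higher than WT by 0.68 untreated (SE 0.03, adjusted p = 9.98e-31) and by 0.22 with IgM (SE 0.04, adjusted p = 4.18e-07). The end of ALKBH4 overlaps ORAI2 on the other strand, at 9.27 to 12.2 CPM over the group means.

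STIM1 and STIM2 are the calcium sensors of the endoplasmic reticulum, and STIM2 responds to smaller losses from the store. STIM2 had 58.0, 58.1 and 61.4 CPM in Y691F with IgM, against 124, 126 and 124 CPM in Y691F untreated. It had 60.2, 62.2 and 64.9 CPM in WT with IgM, against 120.7, 119 and 120.8 CPM in WT untreated. The IgM libraries of both forms were far below the untreated ones and overlapped each other. STIM2 fell by 1.08 on the log2 scale in Y691F (SE 0.04, 2.11-fold lower, adjusted p = 3.86e-42) and by 0.95 in WT (SE 0.04, 1.93-fold lower, adjusted p = 5.53e-38). STIM1 fell by 0.36 in Y691F (SE 0.06, adjusted p = 2.91e-07) and by 0.41 in WT (SE 0.06, adjusted p = 1.63e-08). It averaged 23.3 ± 1.20 CPM in Y691F with IgM against 30.0 ± 1.17 untreated, and 22.5 ± 0.370 CPM in WT with IgM against 29.8 ± 2.46 untreated. Neither gene was called between the forms: the log2 changes of Y691F against WT were 0.06 and 0.01 for STIM1 (with IgM and untreated, adjusted p = 0.547 and 0.960) and -0.08 and 0.06 for STIM2 (adjusted p = 0.141 and 0.224). The responses differed by 0.05 for STIM1 (SE 0.09, adjusted p = 0.746) and by -0.14 for STIM2 (SE 0.06, adjusted p = 0.0622).

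ITPR1, a channel that releases calcium from the endoplasmic reticulum, moved in opposite directions in the 2 forms. It had 24.8, 26.3 and 24.4 CPM in Y691F with IgM, against 28.5, 31.5 and 28.2 CPM in Y691F untreated. It had 35.3, 36.0 and 34.7 CPM in WT with IgM, against 25.9, 26.5 and 27.9 CPM in WT untreated. The IgM libraries were the lowest group in Y691F and the highest group in WT, with no overlap within a form. ITPR1 fell with IgM by 0.22 on the log2 scale in Y691F (SE 0.06, adjusted p = 6.37e-04) and rose by 0.40 in WT (SE 0.06, adjusted p = 1.64e-09), and the difference of the responses was -0.62 (SE 0.08, adjusted p = 1.94e-09). With IgM, Y691F was lower than WT, with a log2 change of -0.49 (SE 0.06, 1.40-fold lower, adjusted p = 4.22e-11). Untreated, the change was 0.14 (SE 0.06, adjusted p = 0.0619), although all 3 Y691F libraries lay above all 3 WT libraries.

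Counted over the 8 tested channel genes, IgM in Y691F called 7, 1 higher and 6 lower, where 75.8% of all tested genes were called, 37.1% higher and 38.7% lower. IgM in WT called 6, 2 higher and 4 lower, where 76.9% of all tested genes were called, 38.4% higher and 38.5% lower. Y691F against WT with IgM called 2 higher and 1 lower, where 42.1% of all tested genes were called, 21.9% higher and 20.2% lower. Untreated, it called 3 higher and 2 lower, where 31.2% were called, 15.1% higher and 16.1% lower. The 3 libraries of one group all lay above those of the other for 7 of the 8 genes for IgM in Y691F (75.6% of all tested genes) and for 7 for IgM in WT (77.7%). Between the forms this held for 5 genes with IgM (50.2% of all tested genes) and 7 untreated (40.0%). The median log2 change of the 8 genes was -0.40 for IgM in Y691F and -0.25 for IgM in WT, where that of all tested genes was -0.01 and 0.0016. Between the forms the medians were -0.01 with IgM and 0.10 untreated, where those of all tested genes were -0.0049 and -0.0078. The difference of the responses was called positive for HVCN1 and negative for KCNA3, ORAI2 and ITPR1, 4 of 8 genes, where 25.7% of all tested genes were called, 14.7% positive and 11% negative. Most genes thus moved with IgM whether or not they encode channels, and these counts are read against that background. With library totals in place of TMM factors, 36.9% of all calls for IgM in Y691F were higher and 63.1% lower, against 48.9% and 51.1% with TMM factors. For the difference of the responses the same split was 46.4% and 53.6%, against 57.1% and 42.9%.

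**Figure D3:**
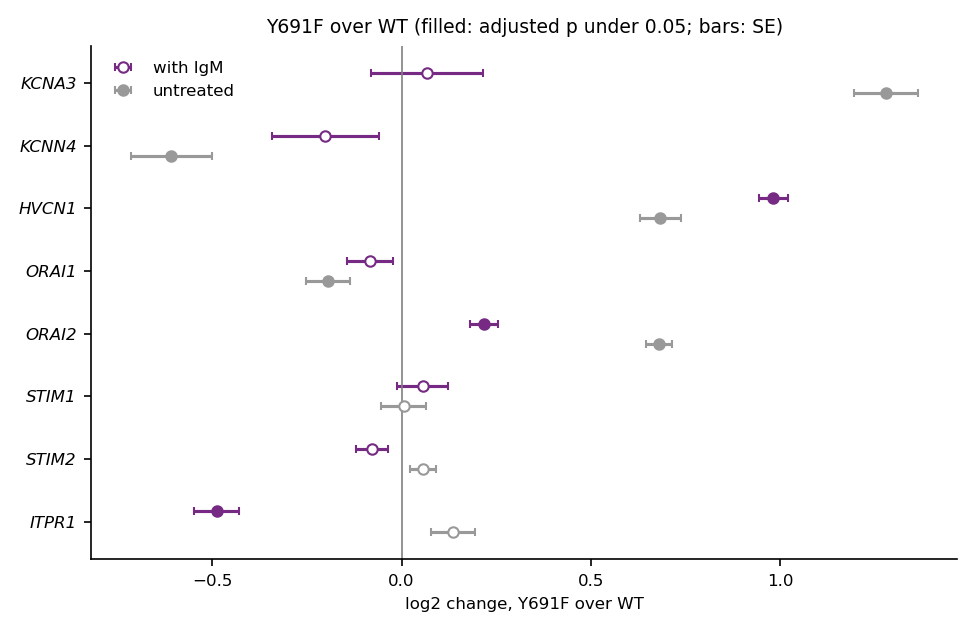
Log2 change of Y691F over WT for the 8 tested channel genes, with IgM (upper point of each pair) and untreated (lower point); bars are the SE and filled points passed an adjusted p under 0.05. KCNA3 lies at 1.28 untreated and at 0.07 with IgM, and HVCN1 lies to the right of 0 under both conditions.

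To compare levels between genes, the deposited RPKM values, which divide by gene length, were used. In Y691F with IgM the order of mean RPKM was HVCN1 (28.5), ORAI1 (8.88), ORAI2 (8.21), STIM2 (6.64), STIM1 (2.53), ITPR1 (1.51), KCNA3 (1.19), KCNN4 (0.924), TRPM4 (0.456) and KCNA2 at 0. There the libraries of ORAI1 and ORAI2 overlapped, and the other neighbours did not. In Y691F untreated it was STIM2 (15.4), ORAI2 (12.3), ORAI1 (9.56), HVCN1 (8.88), KCNA3 (6.71), STIM1 (3.58), ITPR1 (1.94), KCNN4 (1.43), KCNA2 (0.251) and TRPM4 (0.0084), with no overlap between neighbours. HVCN1 thus had the first place with IgM and the fourth without it. In WT with IgM HVCN1 (14.5) was again first, ahead of ORAI1 (9.40), ORAI2 (7.07), STIM2 (7.02), STIM1 (2.45), ITPR1 (2.13), KCNA3 (1.13), KCNN4 (1.07), TRPM4 (0.420) and KCNA2 (0.0025). In WT untreated STIM2 (14.8) led, ahead of ORAI1 (10.9), ORAI2 (7.67), HVCN1 (5.52), STIM1 (3.56), KCNA3 (2.78), KCNN4 (2.17), ITPR1 (1.77), KCNA2 (0.0436) and TRPM4 at 0. ORAI2 with STIM2, and KCNA3 with KCNN4, overlapped in WT with IgM, and no neighbours overlapped in WT untreated.

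The RPKM ratio of ORAI2 to ORAI1 averaged 0.926 in Y691F with IgM, 1.28 in Y691F untreated, 0.752 in WT with IgM and 0.701 in WT untreated. ORAI2 was thus above ORAI1 per length in untreated Y691F cells and below it elsewhere. The ratio of KCNA3 to KCNN4 averaged 1.29 in Y691F with IgM, 4.71 in Y691F untreated, 1.06 in WT with IgM and 1.29 in WT untreated, so that untreated Y691F stood apart there as well. The ratio of STIM2 to STIM1 averaged 2.63 in Y691F with IgM, 4.31 in Y691F untreated, 2.87 in WT with IgM and 4.19 in WT untreated, which separated the IgM from the untreated libraries in both forms. These ratios are descriptions and were not tested.

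**Figure D4:**
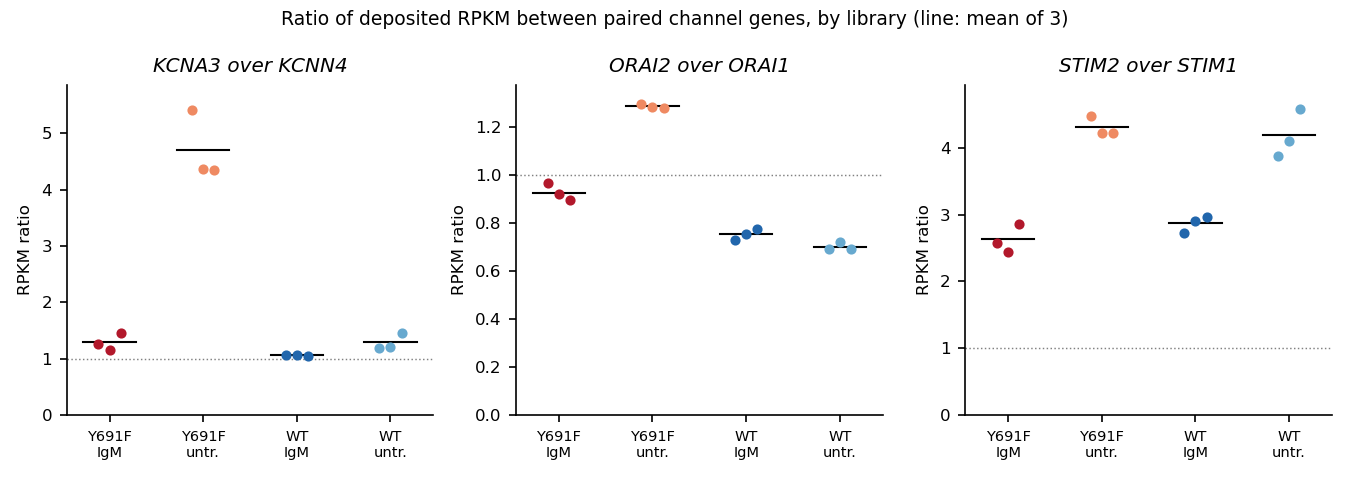
Ratio of deposited RPKM of KCNA3 to KCNN4, ORAI2 to ORAI1 and STIM2 to STIM1 in each library, with a line at the mean of 3 and a dotted line at a ratio of 1; every axis starts at 0. Untreated Y691F stands apart in the first 2 panels, at 4.71 and 1.28, and the STIM2 to STIM1 ratio is lower with IgM in both forms.

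A wider list of 130 genes for calcium handling and ion transport was counted in the same fit, and 98 of them were tested. IgM called 40 higher and 44 lower in Y691F, where 75.8% of all tested genes were called, and 36 higher and 42 lower in WT, where 76.9% were. In total, 84 of the 98 were called in Y691F and 78 in WT. The share of the list called was thus above that of all tested genes in both forms, more so in Y691F. Whether the list differs from other genes was not tested. Potassium channels other than the 3 described above gave the lowest class median in Y691F: of 12 tested, 4 were called higher and 7 lower, where 37.1% and 38.7% of all tested genes were, with a median log2 change of -1.08. In WT 3 were called higher and 7 lower, where 38.4% and 38.5% of all tested genes were, with a median of -1.27. The class of store-operated entry partners had the next lowest medians, -0.96 in Y691F and -1.23 in WT. Of its 5 tested genes, 1 was called higher and 3 lower in each form, beside the same shares over all tested genes. KCNH2, a voltage-gated potassium channel best known from the heart, averaged 7.03 CPM in Y691F with IgM against 77.4 untreated, and 4.77 CPM in WT with IgM against 72.6 untreated, and it fell by 3.45 and 3.92 on the log2 scale (adjusted p = 3.69e-62 and 4.66e-63). KCNQ1, another voltage-gated channel of heart and epithelia, averaged 2.5 CPM in Y691F with IgM against 20.2 untreated, and 2.40 CPM in WT with IgM against 29.9 untreated. The fall in KCNQ1 was by 3.01 in Y691F and by 3.63 in WT (adjusted p = 1.95e-42 and 4.53e-50). KCNMB4, an auxiliary subunit of the large-conductance calcium-activated channel, fell by 2.70 in Y691F and by 3.52 in WT (adjusted p = 3.44e-17 and 1.28e-21). Its levels were low, at 0.529 CPM in Y691F with IgM against 3.52 untreated, and 0.358 CPM in WT with IgM against 4.15 untreated. All 3 genes were thus between 6.48-fold and 15.1-fold lower with IgM.

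KCNN3, a small-conductance calcium-activated potassium channel and relative of KCNN4, had more RPKM than KCNN4 in every group mean. Its mean RPKM was 2.28 in Y691F with IgM, 11.7 in Y691F untreated, 1.46 in WT with IgM and 16.04 in WT untreated, against 0.924, 1.43, 1.07 and 2.17 for KCNN4 in that order of groups. KCNN3 averaged 40.0 ± 3.07 CPM in Y691F with IgM and 187 ± 3.56 CPM in Y691F untreated, and 25.6 ± 2.14 CPM in WT with IgM and 256 ± 3.54 CPM in WT untreated. KCNN3 fell with IgM in both forms, with log2 changes of -2.23 in Y691F and -3.33 in WT (adjusted p = 3.08e-63 and 1.49e-74), and the response was 1.10 higher in Y691F (SE 0.07, adjusted p = 8.13e-26). Its difference of responses was thus opposite in sign to that of KCNA3. Y691F was lower than WT untreated (log2 change -0.45, adjusted p = 3.59e-21) and higher with IgM (0.65, adjusted p = 3.15e-17).

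Among genes of the wider list with a mean of at least 1 CPM, the largest rise was that of MCOLN3, a calcium channel of endosomes and lysosomes. It averaged 6.71 CPM in Y691F with IgM against 1.90 untreated, and 16.7 CPM in WT with IgM against 1.72 untreated, and it rose by 1.81 in Y691F and by 3.26 in WT on the log2 scale (adjusted p = 2.98e-18 and 1.24e-37). The difference of the responses was -1.45 (SE 0.23, adjusted p = 4.24e-07), so the rise was smaller in Y691F. CLCN6, a chloride and proton exchanger of late endosomes, rose by 1.28 in Y691F and by 1.67 in WT (adjusted p = 4.60e-50 and 5.43e-57). SLC4A7, a sodium bicarbonate cotransporter, rose by 1.13 in Y691F and by 1.41 in WT (adjusted p = 2.06e-31 and 2.81e-39). NFATC1, a calcium-regulated transcription factor, rose by 1.08 in Y691F and by 1.33 in WT (adjusted p = 8.07e-45 and 1.12e-50). SYK, a kinase next to the B cell receptor, had log2 changes of -2.43 in Y691F and -2.82 in WT (adjusted p = 5.12e-67 and 1.00e-69).

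**Figure D5:**
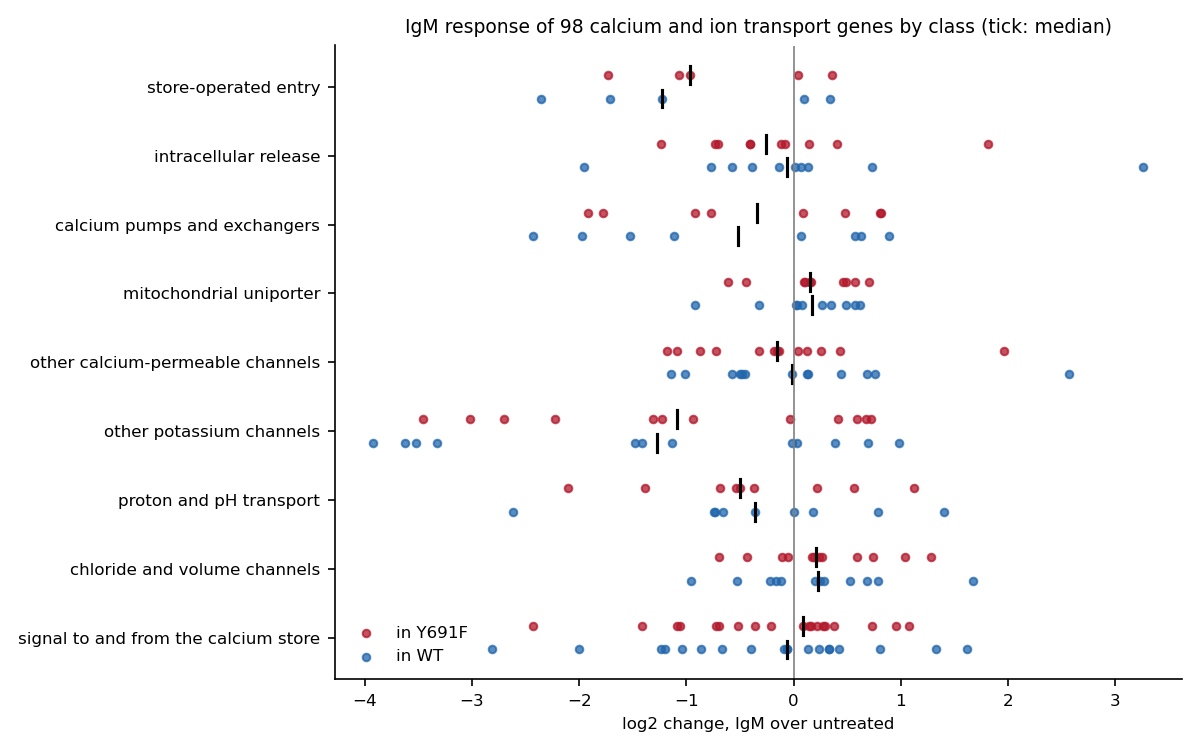
Log2 change of IgM over untreated for the 98 tested genes of the wider list by class, in Y691F (upper row of each pair) and WT (lower row), with 1 point per gene and a tick at the class median. The class of other potassium channels has medians of -1.08 in Y691F and -1.27 in WT and holds the 4 lowest points of WT.

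Between the forms, 33 of the 98 genes of the wider list were called higher and 25 lower in Y691F than in WT with IgM, where 21.9% and 20.2% of all tested genes were. Untreated, 21 were called higher and 28 lower, where 15.1% and 16.1% of all tested genes were. Of the 5 tested partners of store-operated entry, 4 were called higher in Y691F with IgM and 2 untreated, and none lower. Of all tested genes, 21.9% were called higher and 20.2% lower with IgM, and 15.1% and 16.1% untreated. Among the partners, ORAI3, a further pore subunit, was higher with IgM by 1.02 on the log2 scale (SE 0.39, adjusted p = 0.0300). Its levels were low, 0.750 ± 0.337 CPM for Y691F against 0.380 ± 0.143 CPM for WT, with overlapping libraries. TMEM110, which promotes the coupling of STIM1 to ORAI1, was higher with IgM by 0.70 (adjusted p = 0.00932), and its change untreated was -0.05 (adjusted p = 0.825). CRACR2B, a regulator of the ORAI channel, was higher by 0.57 with IgM and by 0.41 untreated (adjusted p = 0.00531 and 0.00307). SARAF, named to complete the 4, had the highest mean level of the 5, at 85.8 CPM over all libraries. It was higher in Y691F by 0.28 with IgM and by 0.26 untreated (adjusted p = 2.27e-09 and 5.32e-08). Mean SARAF went with IgM from 82.3 to 106 CPM in Y691F and from 68.4 to 86.8 CPM in WT. The difference of responses was also positive for TMEM110 (0.75, adjusted p = 0.0292) and for the endoplasmic reticulum calcium pump ATP2A3 (0.65, adjusted p = 1.18e-23), and negative for the lysosomal channel MCOLN1 (-0.54, adjusted p = 1.11e-05). TMEM110 and ATP2A3 fell with IgM in both forms, and less so in Y691F. Mean TMEM110 went from 3.98 to 2.04 CPM in Y691F and from 4.11 to 1.28 CPM in WT. Mean ATP2A3 went from 738 to 215 CPM in Y691F and from 827 to 153 CPM in WT.

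Of the 12 other potassium channels, none was called higher and 8 were called lower in untreated Y691F than in untreated WT, and with IgM 3 were called higher and 6 lower. Of all tested genes, 15.1% were called higher and 16.1% lower untreated, and 21.9% were called higher and 20.2% lower with IgM. KCNC4, a fast voltage-gated channel, was lower in Y691F under both conditions. Its log2 change was -0.89 with IgM and -0.63 untreated (adjusted p = 2.35e-16 and 7.23e-08). KCNK12, a pore subunit of the two-pore-domain family, was lower at -0.40 with IgM and -0.59 untreated (adjusted p = 0.0106 and 9.61e-08). KCNK6, another of that family, was higher with IgM at 1.06 (adjusted p = 2.39e-05), and its change untreated was 0.36 (adjusted p = 0.222). KCNA3 was thus higher in untreated Y691F cells, where 8 of these 12 genes were lower.

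Of the other genes named by the same rule, MCOLN3 was lower in Y691F with IgM at -1.31 (adjusted p = 1.67e-19), and its change untreated was 0.15 (adjusted p = 0.647). The calcium channel subunit gene CACNB1 was lower with IgM at -0.79 (adjusted p = 2.24e-06), and its change untreated was -0.36 (adjusted p = 0.0684). RASGRP3, a Ras activator downstream of diacylglycerol, was lower at -0.78 with IgM and -0.73 untreated (adjusted p = 2.90e-34 and 2.86e-35). The chloride and proton exchangers CLCN5 and CLCN6 were higher in Y691F untreated, by 0.53 and 0.47 (adjusted p = 3.18e-08 and 2.41e-17), and with IgM, by 0.23 and 0.08 (adjusted p = 0.0158 and 0.0490).

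Across the 12 libraries, the genes whose log2 CPM was most like that of each channel gene were sought among 10769 candidates. For KCNA2 they were ALDH5A1, an enzyme of GABA breakdown (Pearson r = 0.988), and the kinase gene PIM2 (0.979). For KCNA3 they were PIM2 again (0.991) and SMIM14 (0.988). For TRPM4 they were GEM, a small GTP-binding protein that inhibits voltage-gated calcium channels, and NRROS, both with r = 0.999. For HVCN1 they were HM13, the signal peptide peptidase, and DHCR7, an enzyme of cholesterol synthesis, both with r = 0.997. For STIM2 they were the chromatin remodeller SMARCB1 (0.998) and the lipid raft gene RFTN1 (0.997), and for STIM1 NDUFB7 (0.981) and TMEM223 (0.975). ORAI2 was most like C2orf88 (0.964) and the autophagy kinase gene ULK1 (0.951), and ORAI1 most like AMPD2 (0.936) and CCDC12 (0.933). KCNN4 was most like LDB1 (0.989) and PHC2 (0.984), and ITPR1 most like RBSN (0.947) and the cytokine gene TNF (0.945). The 12 points fall into 4 groups and share libraries and scaling, so these values describe likeness of pattern only. KCNA2 and TRPM4 were chosen for their IgM pattern, so the genes most like them restate that choice. KCNA2 had at most 1 read per library with IgM, and TRPM4 at most 2 untreated. There the log2 CPM rests largely on a small count added before the logarithm.

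Roquin proteins are known to bind a short stem-loop in 3′ untranslated regions. Its letters, TTCNNNGAA with a pyrimidine, a purine and a pyrimidine in the place of N, were sought on the sense strand of the longest annotated 3′ untranslated region of each gene (GENCODE v29). None of the 10 channel genes held them. They occur in 6.61% of the 11575 tested genes with such a region. Among annotated protein-coding genes, tested or not, they occur in 26.6% and 27.2% of those with regions about as long as those of KCNA2 and ORAI2. TNF held 1 match. The absence of these letters says nothing of whether Roquin2 binds the transcripts by other sites.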

How the data were processed

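PolyA+ RNA of 12 U-2932 libraries (4 groups of 3) was sequenced with strand marking by dUTP, per the labels' protocols. The table deposited by the authors gave, per the file headers, a raw read count and an RPKM value per Ensembl gene and library. STAR 2.5.0b, DESeq2 and GRCh38 are named in the submitters' processing notes; the read counter, its strand setting and the annotation are stated neither there nor in the file. RPKM as deposited was 0 wherever the count was 0, and it was used for levels between genes and for ratios of paralogs; the totals it implies differed from the count totals by up to 3.65%.

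From the counts, genes passing filterByExpr (15112) were scaled by TMM factors (1.04 to 1.07 untreated, 0.939 to 0.956 with IgM) and tested with the quasi-likelihood test of edgeR 4.0.16 (R 4.3.3), robust, 1 coefficient per group and no covariate. P-values were 2-sided and adjusted over all tested genes by Benjamini-Hochberg, with calls at an adjusted p under 0.05. The SE is the size of the log2 change over the square root of the F statistic. The biological coefficient of variation was 2.51%, and replicate libraries differed by more than sampling noise. The submitters describe the replicates as independent, but the p-values measure the spread between these libraries only. Intervals of read ratios are exact binomial 95% intervals, and a group with no read was set to 3 counts. The fit was also run on simulated counts in which 200 genes were changed in 1 group. Most genes stayed unchanged there, so the run cannot test the scaling where most genes move with IgM.

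Members and lists were chosen with earlier results of these data known. Named by rule were all 10 channel genes, the 4 largest called rises and falls per contrast on the wider list (3 for the difference of the responses) at a mean of at least 1 CPM, the 2 genes most alike each channel gene, and RC3H2. A few genes meeting it are not reported here. Alternatives were DESeq2 1.42.0 size factors and Wald test, limma-voom (limma 3.58.1), library totals, 2 other filters, a replicate block and each library left out.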

Additional observations from a re-analysis of the deposited data

Results flagged for a closer look

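For 4 channel genes the IgM response differed between the Roquin2 forms by the test of the difference itself (edgeR quasi-likelihood, adjusted over all tested genes). The log2 response in Y691F minus that in WT was -1.21 for KCNA3, whose untreated level was higher in Y691F and whose level with IgM overlapped between the forms. It was -0.46 for ORAI2, which was also higher in untreated Y691F. It was -0.62 for ITPR1, which fell with IgM in Y691F and rose in WT. It was 0.30 for HVCN1, which rose in both forms and more so in Y691F. The difference was called for 25.7% of all tested genes.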

How the results depend on the processing

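Under 19 alternative fits, all 285 counts of called genes (channel genes, wider list and all genes, per comparison) were within 1.5 times the reported ones. Of 760 log2 changes of the 8 tested channel genes, 740 had the same direction and the same side of the threshold, 10 passed the test only under the alternative, and 10 changed sign. Of these 10, those that also passed the test came with library totals in place of TMM factors. Relative to TMM factors, that setting lowers the levels of the IgM libraries, and which scaling is right was not tested. There the IgM change of ORAI2 in WT was -0.12 (adjusted p = 0.00273) and that of ORAI1 in Y691F was -0.14 (adjusted p = 0.0282). The other sign changes were of values near 0 that passed no test. With a filter of 5 CPM in 3 libraries the IgM changes were -0.025 for ORAI2 in WT and -0.026 for ORAI1 in Y691F. With single libraries left out, ORAI2 in WT ran from -0.0010 (without replicate 3 of the WT IgM group) to 0.036, and ORAI1 in Y691F from -0.0057 (without replicate 3 of the Y691F IgM group) to 0.066. In the same way STIM1 in untreated Y691F against WT ran from -0.050 to 0.060, and the difference of its responses from -0.0050 to 0.105. The 10 calls gained concerned ITPR1 in untreated Y691F against WT (adjusted p = 0.0237 to 0.0497), ORAI1 with IgM in WT (7.32e-04 and 0.0408) and the difference of the STIM2 responses (0.0140 to 0.0479). For ITPR1 they included the fits without replicate 3 of untreated Y691F (0.0398) or of untreated WT (0.0497), and for STIM2 those leaving out replicate 3 of the Y691F IgM group (0.0400) or replicate 1 of the WT IgM group (0.0479); these calls sit at the threshold and the cause was not tested. Leaving out each library in turn, channel genes called numbered 3 in Y691F against WT with IgM, 5 to 6 untreated, 6 for IgM in WT, 7 for IgM in Y691F and 4 to 5 for the difference.

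Replicate numbers did not pair the libraries: 18 correlations between same-numbered libraries of different groups ran from -0.062 to 0.030, and 1 of 12 libraries correlated best with its own number. With the replicate number as a block, 3, 5, 6, 7 and 4 channel genes were called in the same order of comparisons, as without it. Depth limits KCNA2 and TRPM4, whose counts of 0 to 81 reads per library leave wide ratios, and counts of 4 reads against 0 for TRPM4 in untreated cells do not resolve a difference between the forms.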
